A study of Mus musculus with 2 samples.

Results

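The CGRP and adrenomedullin receptor family was followed through 2 single-cell libraries of imiquimod-treated mouse skin. It comprised 6 of the 31053 genes in the count tables, namely the receptor-activity-modifying proteins *Ramp1*, *Ramp2* and *Ramp3*, the receptor gene *Calcrl*, the coupling factor *Crcp* and the ligand *Adm*. The 6 genes were chosen by name, with measured values of these same libraries already known, so their levels by cell type are a description and carry no test. All 6 were detected in both libraries.

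Calcitonin gene-related peptide (CGRP) is released by sensory nerve endings in the skin, and adrenomedullin is a related peptide made by many tissues. Both act through the calcitonin receptor-like receptor, the product of *Calcrl*, which needs a RAMP partner to reach the cell surface. With RAMP1 it forms the CGRP receptor, and with RAMP2 or RAMP3 it forms the adrenomedullin receptors. The product of *Crcp* couples this receptor to its G protein and is also a subunit of RNA polymerase III.

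The mice were wild-type C57BL/6 animals labelled as 10 weeks old, and all received imiquimod, a Toll-like receptor agonist that induces psoriasiform inflammation, on the ear for 5 days. There was no untreated group. One library held epidermal live cells and the other dermal live cells, and the methods of the study add that the dermal cells were sorted as CD45+ and give a younger age. How many animals went into each library was not given in the sources used here.

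With 1 library for each tissue there were no replicates, since cells from the same library do not count as such, and no test was made. Exact 95% intervals stand in brackets and hold nothing but counting error. The dermal library held 5376 barcodes and 41258087 unique molecular identifiers (UMIs, barcodes that mark 1 captured transcript each), and the epidermal library 5258 barcodes and 108768396 UMIs, with 45 barcodes in common. Of these, cells passed with 200 or more genes and no more than 10% of UMIs from mitochondrial genes, 4747 in the dermis with a median of 7010 UMIs and 4173 in the epidermis with a median of 25918. A cell took the type whose list of 6 markers it expressed most completely, with at least 3 markers, which placed 80.8% of dermal and 94.6% of epidermal cells. Types with at least 20 cells are compared below, 16 in the dermis and 8 in the epidermis, and are called "-like" since they rest on transcripts alone. Levels are given as CPM, the gene's UMIs over all UMIs of a type, scaled to 1000000.

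*Ramp1* (chromosome 1, 91179822 to 91225196 of GRCm38, + strand), *Ramp3* (chromosome 11, 6658521 to 6677475, + strand) and *Calcrl* (chromosome 2, 84330626 to 84425411, − strand) carried most of the results, and their promoters are shown as RefSeq places them. *Ramp2* lies on chromosome 11 from 101246028 to 101259546, *Crcp* on chromosome 5 from 130029290 to 130060789 and *Adm* on chromosome 7 from 110627661 to 110629820, all on the + strand. Each sequence runs from 250 bases before the RefSeq start of the gene to 30 transcribed bases (GRCm38.p6, 5′ to 3′ on the strand of the gene), with matches to the motifs searched in capitals. For *Ramp3* and *Calcrl* the RefSeq start lies at another base than the start in the gene positions given above, which are from GENCODE.
Ramp1, chr1:91179572-91179851: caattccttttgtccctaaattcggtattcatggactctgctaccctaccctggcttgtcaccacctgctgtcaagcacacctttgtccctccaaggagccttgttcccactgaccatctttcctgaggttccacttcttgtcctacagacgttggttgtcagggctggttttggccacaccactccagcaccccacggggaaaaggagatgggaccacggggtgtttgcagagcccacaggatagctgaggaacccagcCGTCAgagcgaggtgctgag
Ramp3, chr11:6658283-6658562: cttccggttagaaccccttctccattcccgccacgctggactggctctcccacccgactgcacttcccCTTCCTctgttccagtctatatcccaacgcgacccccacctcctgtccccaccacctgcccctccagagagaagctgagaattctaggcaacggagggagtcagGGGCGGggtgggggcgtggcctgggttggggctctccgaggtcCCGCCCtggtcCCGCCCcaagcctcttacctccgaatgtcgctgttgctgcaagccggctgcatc
Calcrl, chr2:84425237-84425516: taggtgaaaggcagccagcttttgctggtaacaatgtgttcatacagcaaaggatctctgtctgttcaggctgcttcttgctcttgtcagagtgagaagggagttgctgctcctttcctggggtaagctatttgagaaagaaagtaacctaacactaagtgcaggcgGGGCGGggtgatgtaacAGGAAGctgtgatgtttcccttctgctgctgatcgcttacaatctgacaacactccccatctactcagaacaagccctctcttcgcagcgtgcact

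The motifs were read on both strands in the window that ends 50 bases into the gene. They were the GC box GGGCGG, the TATA box TATAAA, the ETS core AGGAAG, the E-box CACGTG, the cyclic AMP response element TGACGTCA with its shorter form TGACG, the GATA motif AGATAA, the hypoxia motif ACGTG and the AP-1 motif TGANTCA. The shorter response element lies within the longer one and the hypoxia motif within the E-box, and each was counted apart. *Ramp3* held 3 GC boxes and 1 ETS core, *Calcrl* 1 of each, and *Ramp1* neither of them but 1 TGACG. Of 32851 mouse promoters of that length, 35.7% held GGGCGG, 35.4% AGGAAG and 20.8% TGACG. Of the 9 motifs, the other 6 had no match in these 3 windows, and a match is a string of letters and not a shown binding site.

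*Ramp1*, the RAMP of the CGRP receptor, was highest in T cells of the dermis. Dermal T cell-like cells numbered 243 and held 37.9% of the 3537 dermal *Ramp1* UMIs at 568 CPM (538 to 599), against 87.6 CPM in the whole library. They were split by lists of subset markers. Type 17 T-like cells, with *Il17a*, *Il17f* and *Il23r* on their list, reached 740 CPM (687 to 796, 71 cells), and 65 of the 71 cells carried a *Ramp1* UMI. The 24 T cells with no subset, because no subset list reached its minimum or because lists tied, stood at 884 CPM (779 to 998). *Il17re*, *Ccr6* and *Il23r* were among their 10 leading genes by fold. T cells placed by *Trdc*, *Tcrg-C1* and the rest of a γδ list had 552 CPM (457 to 660, 23 cells), those placed by an αβ list 404 CPM (340 to 476, 52 cells) and regulatory T-like cells 193 CPM (157 to 234, 73 cells). All 5 groups were above the level of the library, and type 17 T-like cells were 3.84 times (3.12 to 4.78) as high as regulatory T-like cells. With markers counted only from 2 UMIs, the order of γδ-list and αβ-list cells turned, at 599 and 694 CPM.

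Outside the T cells *Ramp1* was high in mast-like cells, which had 418 CPM (332 to 519) from 81 UMIs in 129 cells of low depth, with a median of 879 UMIs. Basophil-like cells, which share granule genes with mast cells, stood at 21.3 CPM (13.3 to 32.2), a 19.6-fold difference (12.1 to 33.1). *Cd209a* dendritic-like cells had 121 CPM (92.7 to 156), whereas *Ccr7* dendritic-like cells, the migratory form, had 13.7 (5.50 to 28.2). Monocyte-like cells were at 78.4 CPM and macrophage-like cells at 38.5, a ratio of 2.04 (1.80 to 2.30). Fibroblast-like cells (58.4 CPM) and neutrophil-like cells (53.7 CPM) lay between these, and blood endothelial-like cells had 14.0 CPM (5.14 to 30.5). Along the order of the 16 dermal types, 7 of the 15 steps from one type to the next had a ratio whose interval left out 1.

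Shares of cells with a *Ramp1* UMI depend on depth. Unthinned, they were 91.5% in type 17 T-like cells (median 11408 UMIs) and 7.21% in basophil-like cells (median 4388 UMIs), a type picked from the low end of the order. With each cell thinned to 1000 UMIs they were 45.1% in type 17 T-like cells, 37.5% in mast-like cells, 26.1% in γδ-list and 23.1% in αβ-list T cells, 5.48% in regulatory T-like cells and 2.27% in basophil-like cells. Thinning left out 81 of 129 mast-like cells and no type 17 T-like cell. On either scale the share was higher in type 17 T-like than in basophil-like cells, which follows in part from the choice of a type with a low level.

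**Figure D1:**
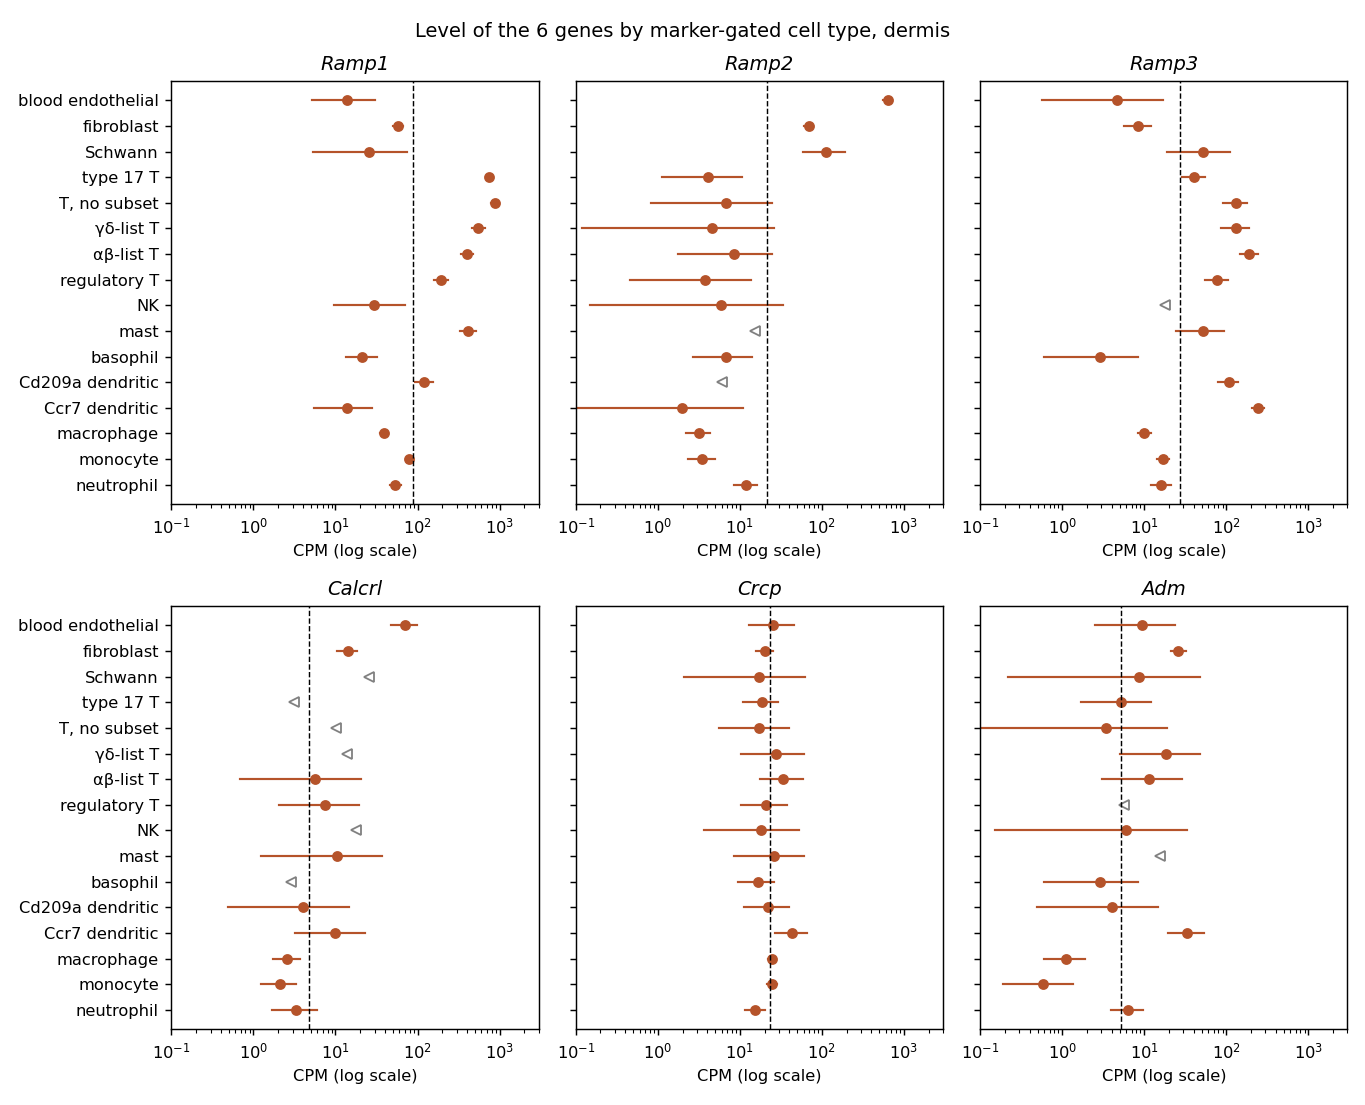
Level of each of the 6 genes in the 16 dermal marker-gated cell types, in CPM on a log axis, with exact 95% Poisson intervals as bars, the whole library as a dashed line and open triangles at the 3-count limit where a type had 0 UMIs. *Ramp1* was highest in T cell subsets, *Ramp2* and *Calcrl* in blood endothelial-like cells, *Ramp3* in *Ccr7* dendritic-like and αβ-list T cells, and *Crcp* ran from 15.5 to 43.0 CPM.

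In the epidermis *Ramp1* was again a gene of T cells, but of few of them. The library held 605 *Ramp1* UMIs, 5.76 CPM, and 47.6% of them lay in 463 T cell-like cells. γδ-list T cells, which made up 397 of these and correspond to the list written for dendritic epidermal T cells, had 47.9 CPM (35.1 to 63.9). The αβ-list T cells had 748 CPM (604 to 916, 28 cells), 15.6 times as much (10.9 to 22.7), yet only 8 of the 28 cells carried a *Ramp1* UMI and 1 cell held 33 of the 93 UMIs. Without the cells that also reached the minimum for a second marker list, 14 cells with 4 UMIs remained, at 108 CPM (29.3 to 276). T cells with no subset had 845 CPM (648 to 1083, 25 cells), and the 12 type 17 T-like cells, too few for the comparisons by type, 1049 CPM (840 to 1293) with *Ramp1* in 11 of 12. Langerhans-like cells had 20.2 CPM (13.4 to 29.2) and keratinocyte-like cells 2.27 (1.98 to 2.58), with a UMI in 4.57% of keratinocyte-like cells at a median of 31600 UMIs against 6.80% of γδ-list T cells at a median of 2365.

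*Ramp3*, the RAMP of the second adrenomedullin receptor, was the RAMP of the epidermal γδ T cells. The 397 γδ-list T cells had 552 *Ramp3* UMIs, 575 CPM (528 to 625) and 45.7% of all *Ramp3* UMIs of the epidermis, against 4.53 CPM (4.12 to 4.97) in keratinocyte-like cells, a ratio of 127 (112 to 144). A *Ramp3* UMI was found in 178 of them, 44.8%, against 11.6% of the much deeper keratinocyte-like cells. Thinned to 1000 UMIs, these shares were 30.9% and 0.481%. T cells with no subset had 382 CPM (254 to 552), but 924 against 445 in γδ-list cells with markers from 2 UMIs, and αβ-list T cells 257 (176 to 363), 0.448 times the level of the γδ-list cells (0.303 to 0.639). That difference was gone in single-list cells, where αβ-list cells had 700.0 CPM (457 to 1026, 14 cells) and γδ-list cells 704 (632 to 781), and as means over cells, at 619 and 630 CPM. *Trdc*, the constant segment of the δ chain, was found in 396 of the 397 γδ-list cells, *Tcrg-C1* in 388, *Xcl1* in 142 and *Trdv4* in 117, but *Tcrg-V5* in only 20. In the dermis *Trdc* was found in 23 of 23 γδ-list cells and *Tcrg-V5* in 1, so the name of dendritic epidermal T cell is not used for them. The αβ list does not exclude *Trdc*. The 30 epidermal T cells without a *Trdc* UMI held 9 *Ramp3* UMIs, 55.4 CPM. The αβ-list cells held 32, and 26 in single-list cells, so most of these lay in cells that also had *Trdc*. Their *Ramp3* level is therefore not that of T cells without *Trdc*.

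**Figure D2:**
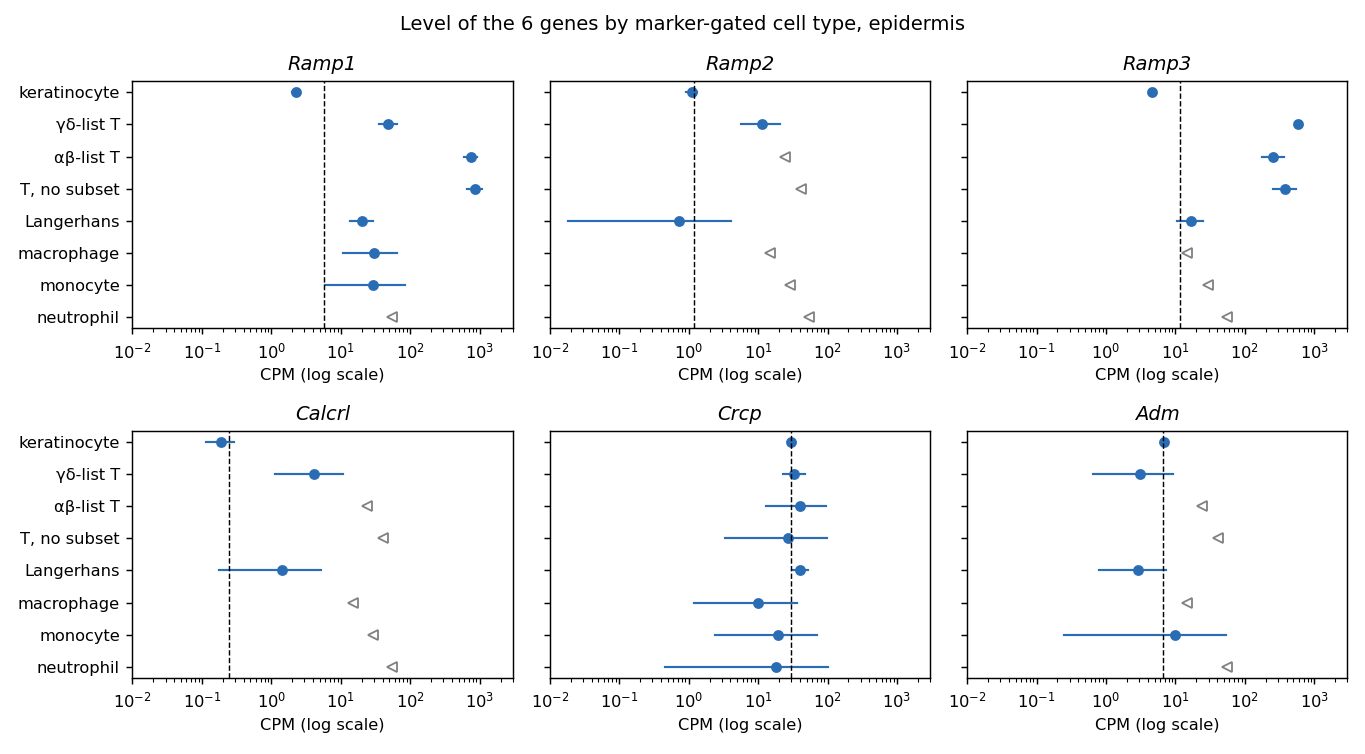
The same plot for the 8 epidermal marker-gated types, in CPM on a log axis, with exact 95% Poisson intervals, the whole library as a dashed line and open triangles at the 3-count limit for 0 UMIs. γδ-list T cells had 575 CPM of *Ramp3* and 47.9 of *Ramp1*, whereas αβ-list T cells had 257 and 748.

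In the dermis *Ramp3* was spread over more types. *Ccr7* dendritic-like cells had the highest level among types with 20 cells, 244 CPM (203 to 291) from 125 UMIs in 37 cells, 20 of which carried the gene. αβ-list T cells followed with 189 CPM (147 to 240), then γδ-list T cells (130 CPM), T cells with no subset (130), *Cd209a* dendritic-like cells (107) and regulatory T-like cells (77.4). No step between neighbours among these 6 had a ratio whose interval left out 1, but the ends of this order lay apart, with regulatory T-like cells at 55.6 to 105 CPM. Type 17 T-like cells had 40.2 CPM (28.6 to 55.0), 0.212 times the αβ-list level (0.139 to 0.320), and macrophage-like cells 10.0 (8.31 to 12.0). With cells left out that also reached the minimum for a second marker list, 11 *Ccr7* dendritic-like cells remained with 4 *Ramp3* UMIs, 36.9 CPM (10.1 to 94.5), and 16 *Cd209a* dendritic-like cells with 1 UMI. The αβ-list cells, 32 of which remained, then stood above them with 301 CPM (224 to 397), and the 29 type 17 T-like cells 81.4 (49.0 to 127). As means over cells, in which shallow cells weigh as much as deep ones, type 17 T-like cells had 121 and αβ-list cells 239 CPM.

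*Ramp1* and *Ramp3* went in opposite directions between the γδ-list T cells of the libraries. Dermal γδ-list T cells had 11.5 times (8.13 to 16.6) the *Ramp1* of epidermal γδ-list T cells and 0.226 times (0.149 to 0.330) their *Ramp3*. As means over cells the *Ramp3* levels lay closer, at 356 and 630 CPM. As gated, the αβ-list cells did not share this pattern, with ratios of dermis to epidermis of 0.540 (0.413 to 0.709) for *Ramp1* and 0.735 (0.476 to 1.16) for *Ramp3*. In single-list cells, however, αβ-list levels went the same way as γδ-list levels. Their *Ramp1* was then 338 CPM (255 to 438) in the dermis and 108 (29.3 to 276) in the epidermis, from 4 UMIs in 14 cells. Their *Ramp3* was 301 (224 to 397) and 700.0 CPM (457 to 1026). T cells were also split by single transcripts, and *Il17a* separated both genes in opposite directions. Epidermal T cells with an *Il17a* UMI (15 cells) had 1062 CPM of *Ramp1* against 154 in the 448 without, a ratio of 6.91 (5.40 to 8.80), while their *Ramp3* was 75.2 against 531 CPM, a ratio of 0.142 (0.0609 to 0.281). In the dermis the same split gave 678 against 487 CPM for *Ramp1*, a ratio of 1.39 (1.25 to 1.55), and 33.1 against 132 CPM for *Ramp3*, a ratio of 0.251 (0.167 to 0.365). The split by *Trdc* turned between the tissues. A *Trdc* UMI was found in 94 dermal and 433 epidermal T cells, against 23 and 397 γδ-list cells. In the dermis *Trdc* was also among the leading genes by fold of type 17 T-like cells. The ratios between γδ-list cells therefore do not stand for all T cells with *Trdc*, least of all in the dermis. Epidermal T cells with *Trdc* had 0.0997 times the *Ramp1* of those without (0.0781 to 0.127), whereas dermal T cells with *Trdc* had 1.24 times as much (1.11 to 1.38). For *Ramp3* the ratios were 10.1 (5.26 to 22.1) in the epidermis and 0.785 (0.590 to 1.04) in the dermis. Dermal T cells with *Foxp3*, the master regulator of regulatory T cells, had 0.298 times the *Ramp1* of the others (0.229 to 0.382) and 0.836 times their *Ramp3* (0.537 to 1.26). Those with *Trac*, the constant segment of the α chain, had 0.954 (0.855 to 1.06) and 0.805 times (0.609 to 1.06) as much. The cells with *Il17a* were the deeper ones in both libraries, with medians of 11938 against 6708 UMIs in the dermis and 6669 against 2362 in the epidermis. Neither cell-to-cell nor animal-to-animal spread enters these intervals.

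How often both genes were found in single T cells differed between the groups. Of the 71 dermal type 17 T-like cells 53 had *Ramp1* alone, 12 both and 2 *Ramp3* alone, so 12 of the 14 cells with *Ramp3* had *Ramp1* as well. Of the 24 dermal T cells with no subset 12 had *Ramp1* alone, 9 both and 0 *Ramp3* alone. Of the 397 epidermal γδ-list cells 17 had *Ramp1* alone, 10 both and 168 *Ramp3* alone, and 202 had neither at their median of 2365 UMIs. The dermal αβ-list cells were more mixed, with 11, 13 and 7 of 52. Whether depth accounts for cells with neither gene was not tested.

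**Figure D3:**
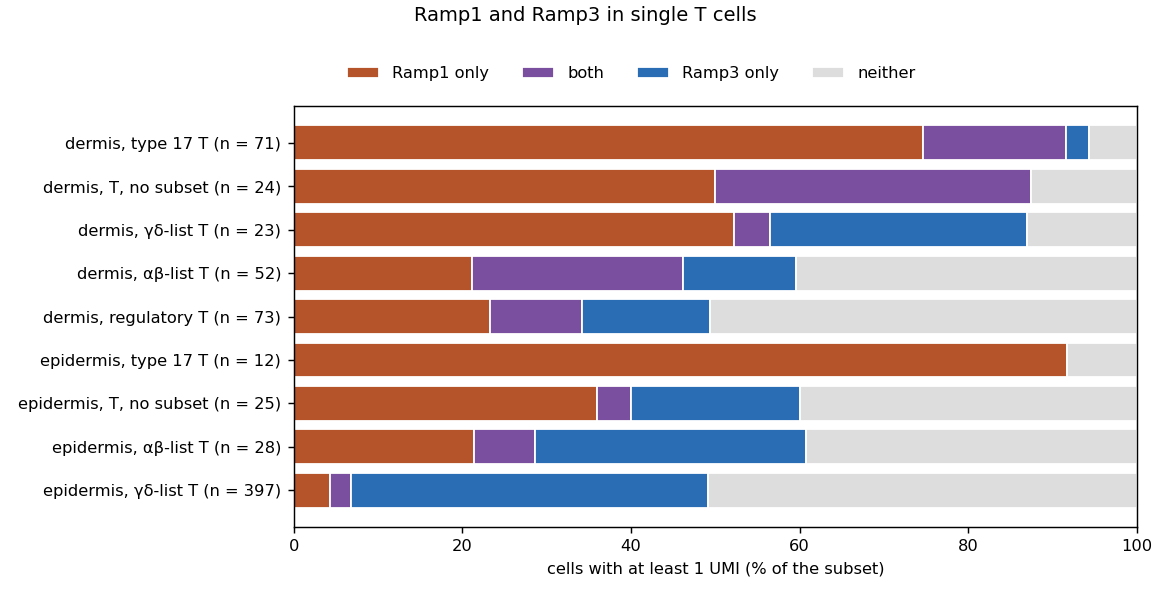
Share of T cells, in percent of each subset and library, that had at least 1 UMI of *Ramp1* alone, of both genes, of *Ramp3* alone or of neither. *Ramp1* alone filled most of the dermal type 17 T-like bar (53 of 71 cells), and *Ramp3* alone was the largest coloured part of the epidermal γδ-list bar (168 of 397).

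*Ramp2*, the RAMP of the first adrenomedullin receptor and a gene of vessel walls, was concentrated in endothelium. The 26 blood endothelial-like cells held 271 of the 869 dermal *Ramp2* UMIs, 633 CPM (560 to 712), and 22 of the 26 carried it. The 10 lymphatic endothelial-like cells, too few for the comparisons by type, had 849 CPM (658 to 1078). Schwann-like cells had 112 CPM (59.5 to 191) from 13 UMIs and fibroblast-like cells 69.6 CPM (61.2 to 78.9) from 248 UMIs, so that blood endothelial-like cells were 9.08 times (7.62 to 10.8) as high. Type 17 T-like cells had 4.12 CPM (1.12 to 10.6) and macrophage-like cells 3.18 (2.24 to 4.38). Thinned to 1000 UMIs, 34.6% of blood endothelial-like and 6.43% of fibroblast-like cells carried the gene against 0.271% of macrophage-like cells; unthinned, the shares were 84.6%, 40.8% and 3.05% at medians of 14640, 9567 and 8848 UMIs. *Ramp2* overlaps *Vps25* on the same strand from position 101253707 to its end, so UMIs of this stretch cannot be assigned with certainty. In the epidermis, where the gates held no endothelial type, there were 127 *Ramp2* UMIs. γδ-list T cells had 11 of them, 11.5 CPM (5.72 to 20.5), and keratinocyte-like cells 112, 1.11 CPM (0.916 to 1.34), a ratio of 10.3 (4.998 to 19.1).

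*Calcrl*, the receptor itself, was sparse, with 191 dermal and 26 epidermal UMIs. Blood endothelial-like cells had 70.0 CPM (47.2 to 99.96) from 30 UMIs in 12 of 26 cells, and fibroblast-like cells 14.0 CPM (10.4 to 18.5) from 50 UMIs in 37 of 319 cells, a ratio of 4.99 (3.06 to 7.997). These types held 15.7% and 26.2% of the dermal *Calcrl* UMIs. In single-list cells the blood endothelial-like level rested on 2 UMIs in 12 cells, 31.7 CPM (3.84 to 115). Thinned to 1000 UMIs, 3.85% and 1.93% of their cells carried the gene, against 0.271% of macrophage-like cells. The dermal sort was for CD45+ cells, yet *Ptprc*, which encodes CD45, was found in 19.2% of blood endothelial-like and 27.3% of fibroblast-like cells, against 64.0% of the library. Macrophage-like cells had 2.58 CPM (1.74 to 3.68). Type 17 T-like cells had 0 UMIs of *Calcrl*, with a 3-count limit of 3.09 CPM, and the level of blood endothelial-like cells was 22.6 times that limit. With the counting error of both types, the ratio of type 17 T-like to blood endothelial-like cells had an interval of 0 to 0.0578. All 243 dermal T cell-like cells held 6 UMIs and all 463 epidermal ones 4.

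The question whether *Calcrl* and a RAMP gene meet in one gated type was read from the levels. A gene was counted for a type when the lower bound of its CPM interval lay above its CPM in the whole library, which held for 13.7% of all pairs of a gene and a type in the dermis and for 11.8% in the epidermis. In the dermis *Calcrl* was counted in 2 of 16 types, blood endothelial-like and fibroblast-like cells, *Ramp1* in 7, *Ramp2* in 3 and *Ramp3* in 7. *Calcrl* met *Ramp2* in both of its types and met neither *Ramp1* nor *Ramp3* in any. The 7 types of *Ramp1* were the 5 T cell groups, mast-like and *Cd209a* dendritic-like cells, and those of *Ramp3* were the same T cell groups with both dendritic types. The members were chosen with these levels known, and nothing is read from the number of types against the background. With 4 markers required, with markers at 2 UMIs, with single-list cells or without the cells of most UMIs, fewer than 20 blood endothelial-like cells remained, 12 to 19, and the meeting with *Ramp2* was counted in fibroblast-like cells alone. If a gene is instead counted where at least 5% of cells have a UMI, *Ramp1* and *Ramp3* each met *Calcrl* in 4 dermal types, namely fibroblast-like, regulatory T-like, *Ccr7* dendritic-like and blood endothelial-like cells, so the statement on *Ramp1* and *Ramp3* depends on the rule.

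**Figure D4:**
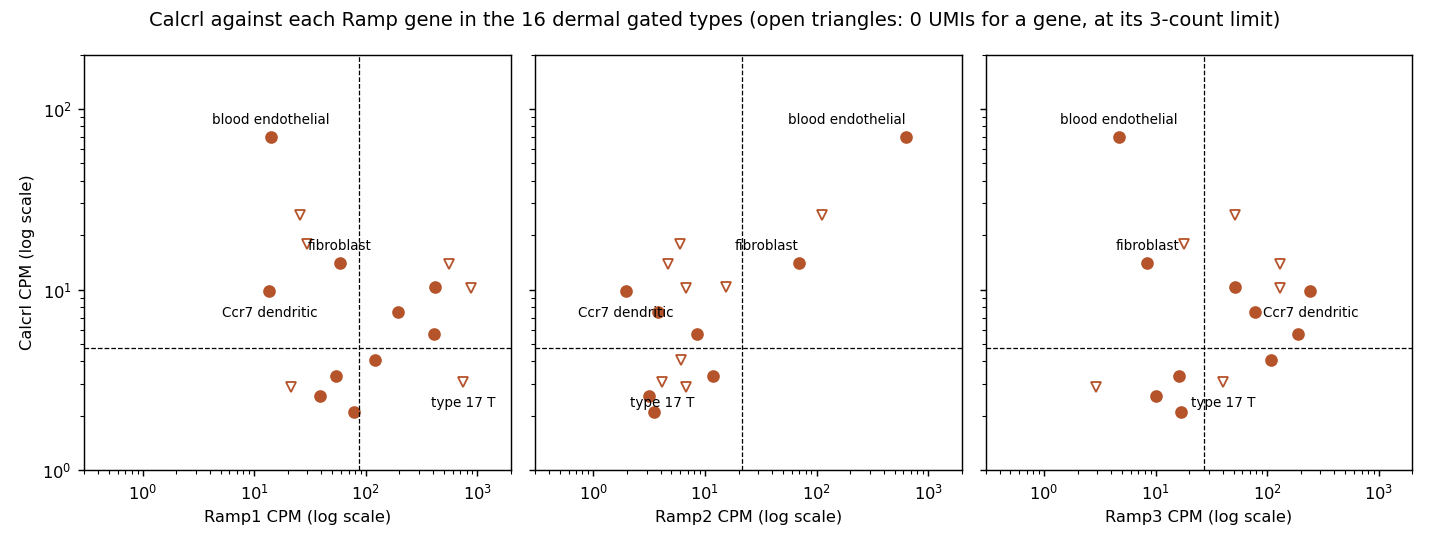
*Calcrl* against *Ramp1*, *Ramp2* and *Ramp3* in the 16 dermal gated types, both in CPM on log axes, with dashed lines at the level of the whole library and open triangles at the 3-count limit where a gene had 0 UMIs. Blood endothelial-like and fibroblast-like cells lie in the upper right field of the *Ramp2* panel and to the left of the vertical line in the other panels, and type 17 T-like cells lie low on the *Calcrl* axis.

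In the epidermis the same rule counted *Calcrl* in 1 type, the γδ-list T cells, together with each of the 3 RAMP genes. That rested on 4 *Calcrl* UMIs in 397 cells, 4.17 CPM (1.14 to 10.7), against 0.248 CPM in the library. Of the 4 cells with *Calcrl*, 2 also had *Ramp3* and 0 had *Ramp1* or *Ramp2*. With at least 5% of cells required, no epidermal type was counted. Keratinocyte-like cells made up 3194 of the 4173 epidermal cells and held most UMIs. The library level is therefore close to theirs, and the rule can hardly count them. It compares other types mainly with keratinocyte-like cells. Of the 26 epidermal cells with *Calcrl*, 19 were keratinocyte-like. Of these 19, 4 also had *Ramp1*, 2 *Ramp2* and 2 *Ramp3*.

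Single cells gave a second reading. *Calcrl* was found in 151 dermal cells, of which 94 had a UMI of any RAMP gene and 57 had none. *Ramp2* was found in 31.1% of the *Calcrl* cells (23.8 to 39.2%) against 6.53% of the other cells. For *Ramp1* the shares were 37.7% (30 to 46%) and 29.5%, and for *Ramp3* 10.6% (6.18 to 16.6%) and 8.27%. The *Calcrl* cells were deeper, with a median of 13635 against 6886 UMIs, and the part of depth in these shares was not tested. All 12 blood endothelial-like cells with *Calcrl* had *Ramp2*, a share with a lower bound of 73.5%, against 71.4% of the 14 without, which had a median of 3433 UMIs against 24730. Among fibroblast-like cells *Ramp2* was in 19 of 37 *Calcrl* cells, 51.4% (34.4 to 68.1%) against 39.4% of the others, and *Ramp1* in 12 of 37, 32.4% against 33.0%. *Ramp1* was in 12 of 17 monocyte-like *Calcrl* cells, 70.6% (44.0 to 89.7%) against 38.2%. For macrophage-like cells it was 12 of 29, 41.4% (23.5 to 61.1%) against 26.8%. It was in 4 of 11 neutrophil-like and 4 of 12 blood endothelial-like *Calcrl* cells, 36.4% against 18.1% and 33.3% against 7.14%. None of the few regulatory T-like, mast-like and αβ-list T cells with *Calcrl* had *Ramp1*. *Calcrl* cells were deeper in all these types. In the epidermis 26 cells had *Calcrl*, 12 of them with any RAMP gene.

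Fibroblast-like cells were split by *Tnc*, the gene of tenascin-C, an extracellular matrix protein of inflamed skin. The 211 cells with a *Tnc* UMI had 50.03 CPM of *Ramp1* and 62.2 of *Ramp2*, and the 108 without had 85.5 and 93.8. The ratios were 0.585 (0.437 to 0.790) and 0.663 (0.505 to 0.877). For *Calcrl* the ratio was 0.797 (0.420 to 1.60) and for *Adm* 1.29 (0.764 to 2.30), intervals that reach from a fall to a rise. The cells with *Tnc* were deeper, with a median of 11450 against 6586 UMIs.

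*Crcp* was found in all 16 dermal types. Its levels there ran from 15.5 to 43.0 CPM around 23.3 in the library. None of the 15 steps in their order had a ratio whose interval left out 1, but steps between neighbours are the smallest differences in an order. *Ccr7* dendritic-like cells were highest, with 43.0 CPM (26.9 to 65.0), and neutrophil-like cells lowest, with 15.5 (11.5 to 20.3), so the ends of the order lay apart. Fibroblast-like cells had 0.471 times (0.289 to 0.797) the level of *Ccr7* dendritic-like cells. In the epidermis it had 3107 UMIs and 29.6 CPM, with 29.5 in keratinocyte-like, 33.3 in γδ-list T and 40.5 in Langerhans-like cells.

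*Adm*, the adrenomedullin ligand, had its largest share of UMIs in fibroblast-like cells of the dermis, though less than 50%, and in keratinocyte-like cells of the epidermis. In the dermis fibroblast-like cells held 93 of 212 UMIs, 26.1 CPM (21.1 to 32.0), but 1 cell held 32 of the 93, and without it the level was 17.3 CPM. *Ccr7* dendritic-like cells had 33.2 CPM (19.3 to 53.2) from 17 UMIs, and macrophage-like cells 1.12 (0.594 to 1.91). Neutrophil-like cells had 21 UMIs, 15 of them in 1 cell. In the epidermis keratinocyte-like cells held 679 of 701 *Adm* UMIs at 6.75 CPM (6.25 to 7.27), found in 310 of 3194 cells. Keratinocyte-like cells with both *Mki67* and *Top2a*, which mark dividing cells, had 0.815 times the *Adm* of the others (0.684 to 0.974).

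Other ligands and receptors of the family came from a list of 61 pathway genes. *Calca*, which encodes CGRP, had 164 UMIs in 46 dermal cells, of which 68 UMIs lay in cells that no marker list claimed and 37 in mast-like cells, where 1 cell held 32. The 18 cells with at least 2 *Calca* UMIs, a group chosen after its values were seen, had *Ramp3* in 12 cells and at 464 CPM (358 to 592), against *Ramp3* in 8.12% of all other cells. *Ramp1* was in 9 of them and *Calcrl* in 0. Of the 18, 14 had *Skap1*, 13 *Il7r*, 12 *Gata3* and 8 *Lat*, genes found in several kinds of lymphocytes. In all other cells their shares were 10.2%, 10.9%, 4.80% and 15.75%. The rest of the T cell list was in fewer, *Cd3g* in 5 and *Cd3d*, *Cd3e* and *Lck* in 3 each. Of genes that mark type 2 lymphocytes more closely, 3 had *Il1rl1*, 2 *Il13*, 1 *Klrg1* and 0 *Il5*. *Il1rl1* was in 16.7% against 4.19% of all other cells, *Il13* in 11.1% against 2.07% and *Klrg1* in 5.56% against 1.945%. With 1 *Calca* UMI enough, the 46 cells had 305 CPM of *Ramp3* (248 to 371). Of the 9 dermal cells placed by the list for type 2 innate lymphoid cells, 5 carried *Ramp3*, with 33 UMIs. *Calca* and *Ramp3* were among the 10 leading genes by fold of these 9 cells. The epidermis had 3 *Calca* UMIs in 1 cell. *Adm2*, the gene of intermedin, another ligand of these receptors, had 414 UMIs in the epidermis, 406 of them in keratinocyte-like cells, and 3 in the dermis. *Calcb*, *Iapp* and *Calcr* had at most 4 UMIs in either library.

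Decoy and clearance genes lay in structural cells. *Ackr3*, an atypical receptor that takes up adrenomedullin, had 169 of its 255 dermal UMIs in fibroblast-like cells (47.5 CPM, 40.6 to 55.2) and 1112 of its 1141 epidermal UMIs in keratinocyte-like cells (11.05 CPM, 10.4 to 11.7). *Gpr182*, an atypical receptor of endothelium, had 31 of 48 dermal UMIs in blood endothelial-like cells (72.4 CPM, 49.2 to 103). Among dermal types with at least 20 cells, this type had the highest *Ramp2* and *Calcrl*. *Mme*, a peptidase that degrades such peptides, had 94 of 151 dermal UMIs in fibroblast-like cells.

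The pathway list was then compared between T cells. A gene entered with 20 or more UMIs in the groups together and was counted when their CPM differed more than 2-fold. Dermal type 17 T-like cells were set against the other 172 dermal T cells, with median depths of 11408 and 6041 UMIs. Of the 39 list genes that reached the minimum, 0 were more than 2-fold higher and 5 lower, where 2.01% and 8.55% of all 6869 genes were. These counts were not stable, since other settings for cells and genes at the same fold gave 0 to 2 higher and 2 to 5 lower. The median log2 ratio was −0.10 for the list and −0.11 for all genes. *Ramp3* had a log2 ratio of −1.62 (40.2 against 125 CPM), and *Ramp1* one of 0.73 (740 against 447 CPM), short of 2-fold. The other T cells included the 24 with no subset, which held 259 of their 623 *Ramp1* UMIs. Without these, a choice made after seeing the data, the other 148 cells had 331 CPM, type 17 T-like cells were 2.24 times (1.97 to 2.54) as high, and 1 list gene (*Ramp1*) was higher and 4 lower (*Ramp3*, *Prkacb*, *Il10* and *Crem*). With all other T cells, the others lower were *Calca* (log2 ratio −1.80, from 3 and 17 UMIs), *Il10*, a cytokine induced by cyclic AMP (−1.95, from 5 and 30 UMIs), *Ide*, the insulin-degrading enzyme (−1.10), and *Prkacb*, a catalytic subunit of protein kinase A (−1.04).

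Dermal and epidermal T cells differed more, across libraries that also differed in sort. T cell depth differed too, with medians of 7731 and 2381 UMIs. So did make-up, since 23 of the 243 dermal T cells but 397 of the 463 epidermal ones were γδ-list cells. The γδ-list cells were not all T cells with *Trdc*, which numbered 94 in the dermis and 433 in the epidermis. Of 41 list genes that reached the minimum, 11 were more than 2-fold higher in the dermis and 7 lower, where 8.68% and 23.4% of all 8668 genes were. The median log2 ratio was 0.25 for the list and −0.40 for all genes. *Ramp1* was higher (log2 ratio 1.29, 568 against 231 CPM) and *Ramp3* lower (−2.45, 90.2 against 492 CPM), whereas *Crcp* was within the limit (−0.55). For *Ramp1* this did not hold within every subset, with ratios of dermis to epidermis of 11.5 in γδ-list cells, 0.540 in αβ-list cells, 0.706 (0.564 to 0.892) in type 17 T-like cells, 12 of them epidermal, and 1.05 (0.790 to 1.40) in T cells with no subset. The αβ-list direction turned in single-list cells, at 338 CPM in the dermis and 108 in the epidermis, the latter from 4 UMIs. For *Ramp3* the ratios were 0.226, 0.735 and 0.340 (0.203 to 0.575) in γδ-list, αβ-list and unassigned T cells, and type 17 T-like cells had 40.2 CPM in the dermis and 0 UMIs in the epidermis. Of the 15 cyclic AMP-response genes 8 were higher and 0 lower, among them *Nr4a1* (3.04, 215 against 25.7 CPM), *Areg*, the gene of amphiregulin (2.55, 205 against 34.6 CPM), *Dusp1* (2.17, 326 against 72.3 CPM), *Nr4a3*, *Sik1*, *Fosl2*, *Thbs1* and *Il10*. *Il10* and *Calca* had 0 UMIs in epidermal T cells, and their dermal levels were 6.15 and 3.51 times the 3-count limit. With counting error on both sides, the lower bounds of their ratios were 4.74 and 2.60.

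Genes that act on cyclic AMP between receptor and response moved both ways. The phosphodiesterase *Pde4b*, which degrades cyclic AMP, was higher in dermal T cells (log2 ratio 2.62, 61.4 against 9.64 CPM), while *Pde3b* (−2.33) and *Pde7a* (−1.81) were lower. The cyclase *Adcy7* (−2.39) and the kinase subunit *Prkacb* (−3.65, 40.6 against 511 CPM) were lower as well, as were *Arrb1* (−1.24) and *Grk3* (−2.73), which switch off G protein-coupled receptors.

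**Figure D5:**
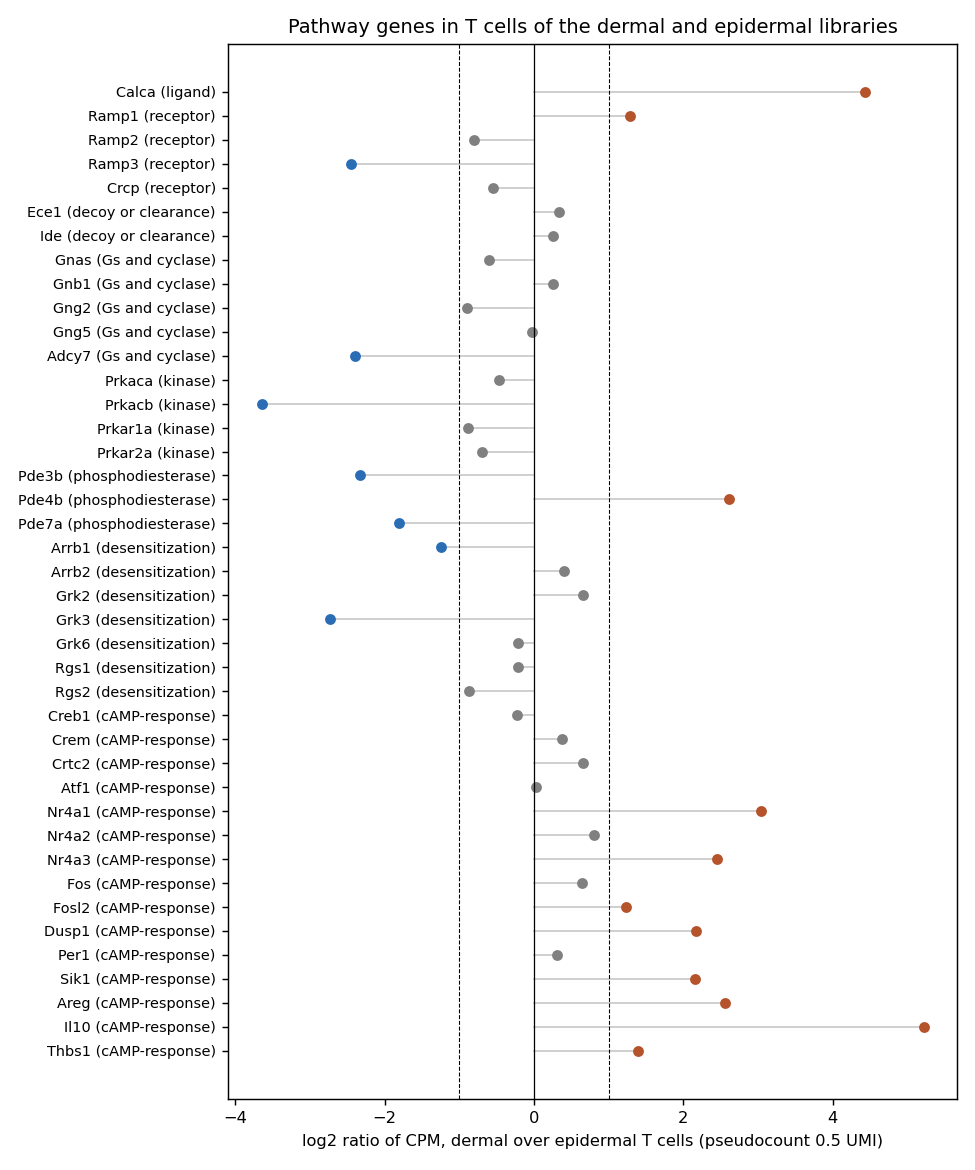
Log2 ratio of CPM, dermal over epidermal T cells, for the 41 pathway genes with at least 20 UMIs, with the role of each gene beside its name, dashed lines at 2-fold either way and colours for higher in the dermis (brown), lower (blue) and within 2-fold (grey). The points of *Calca* and *Il10*, with 0 UMIs in epidermal T cells, rest on the pseudocount of 0.5 UMI. *Ramp1* lies to the right and *Ramp3* to the left, and 8 of 15 cyclic AMP-response genes lie past the right line.

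The genes most like each member were taken from Pearson's r of log2(CPM + 1) over the 24 types of both libraries, among 12665 genes. These r are a description over types that share 2 libraries and differ in depth. *Ramp1* was most like *Batf* (r = 0.87), a transcription factor of type 17 T cells, *Cryba4* (0.86) and *Il22* (0.85). *Ramp2* was most like *Tm4sf1* (0.91), a surface protein of endothelium, *Dlc1* (0.89) and *Slc9a3r2* (0.88). *Ramp3* was most like *2610037D02Rik* (0.85), *Rab11fip4* (0.83) and *Zfp746* (0.82), and *Calcrl* most like *Tcf7l1* (0.87), *Zfp652os* (0.83) and *Npr1* (0.81), the receptor of natriuretic peptides. *Crcp* (*Sh3bp4*, *Tcaim* and *Aamp*, 0.69 to 0.76) and *Adm* (*Mon1b*, *Ndrg4* and *Cul7*, 0.67 to 0.75) had weaker neighbours. Between the members themselves r with *Calcrl* was 0.49 for *Ramp2*, 0.18 for *Ramp3* and −0.05 for *Ramp1*, and r between *Ramp1* and *Ramp3* was 0.65. Over the 12 types with at least 50 cells, which leave out blood endothelial-like cells, r with *Calcrl* was 0.31 for *Ramp2*, 0.42 for *Ramp3* and 0.38 for *Ramp1*.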

How the data were processed

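The authors prepared 10x Genomics 3′ libraries, trimmed the reads, counted UMIs per gene and cell with CellRanger (3.0.2 in the matrix header; mm10 per the submitters' processing notes) and deposited raw counts for all called barcodes, to which none of their later cell or doublet filters had been applied. The 3′ counts were not scaled by transcript length, so levels are compared between cells and not between genes. Gene positions are from GENCODE M21 (31011 of 31053 identifiers matched) and promoters from RefSeq tables.

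Cells were filtered and gated as described, from 20 type lists and 4 T cell subset lists, with at least 2 subset markers. T cells for which no subset list reached this minimum, or for which subset lists tied, were left with no subset. Ties (608 dermal and 94 epidermal cells) and cells with no list (302 and 131) stayed unnamed. No doublet caller was run. Alternatives left out the cells with the most UMIs, at 0.8% per 1000 cells, or cells that also reached another list. CPM carry exact Poisson intervals, shares Clopper-Pearson intervals and ratios exact conditional intervals, all at 95%. A count of 0 was given the limit of 3 counts. Log2 ratios used a pseudocount of 0.5 UMI, and likeness genes with at least 100 UMIs. The comparisons across genes were tested on simulated Poisson counts, which hold no cell-to-cell spread. Of genes planted with a log2 change of 1, 52.1% passed the fold in the type 17 comparison and 35.7% in that of dermal with epidermal T cells. Of genes planted with no change, 2.465% and 2.529% passed.

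The members, gene lists and alternatives were chosen with earlier results of these data known. Named were the 6 members, list genes past the fold, ligands and receptors with at least 20 UMIs and the 3 genes most like each member. Genes used to split T cells, fibroblasts and keratinocytes were chosen after the levels were seen. The work used scipy 1.17.1, pandas 2.3.3 and numpy 2.4.6 under Python 3.11.15.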

Additional observations from a re-analysis of the deposited data

How the results depend on the processing

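No paired analysis was possible because only 1 library was made for either tissue. The comparison of dermal with epidermal keratinocytes could not be fitted, with 2 dermal keratinocyte-like cells. Depth limits *Calcrl* most, with 191 dermal and 26 epidermal UMIs. Causes of the following changes were not tested.

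With cells of 200 to 5000 genes and a mitochondrial limit of 5%, keratinocyte-like *Adm* was 4.61 CPM, epidermal cells with *Calcrl* and *Ramp2* numbered 0, and 1 list gene was higher and 3 lower in dermal type 17 T-like cells. With markers at 2 UMIs, epidermal γδ-list *Ramp3* was 445 CPM, *Calcrl* and *Ramp2* met in 1 dermal type, and 2 list genes were higher and 3 lower in type 17 T-like cells. With at least 4 markers, *Calcrl* and *Ramp2* met in 1 type.

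With single-list cells, CPM were 714 for *Ramp2* and 31.7 for *Calcrl* in blood endothelial-like cells, 36.9 for *Ramp3* in *Ccr7* dendritic-like cells, 11.2 for *Adm* in fibroblast-like cells, 108 for *Ramp1* in epidermal αβ-list cells (4 UMIs in 14 cells), 704 for *Ramp3* in epidermal γδ-list cells and 5.87 for *Adm* in keratinocyte-like cells. *Calcrl* and *Ramp2* met in 1 dermal type, 1 list gene was higher and 3 lower in type 17 T-like cells, and 6 were higher in dermal T cells. Without the cells of most UMIs, *Ramp2* was 883 CPM in blood endothelial-like cells, *Adm* 15.2 in fibroblast-like and 5.78 in keratinocyte-like cells, *Calcrl* and *Ramp2* met in 1 type, 10 dermal cells had *Calcrl* and *Ramp3*, and 1 list gene was higher and 3 lower in type 17 T-like cells.

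Without the richest cell, *Ramp3* was 197 CPM in *Ccr7* dendritic-like, *Adm* 17.3 in fibroblast-like and *Ramp1* 531 in epidermal αβ-list cells. As means over cells, *Ramp1* was 685 CPM in type 17 T-like and 358 in epidermal αβ-list cells, *Ramp3* 630 in epidermal γδ-list cells, and *Adm* 18.1 in fibroblast-like and 6.24 in keratinocyte-like cells. With at least 5% of cells required, *Calcrl* met *Ramp1* in 4 and *Ramp3* in 4 dermal types, and each RAMP gene in 0 epidermal types. At least 50 UMIs left 2 list genes lower in type 17 T-like cells, and a limit of 1.5-fold gave 4 higher and 9 lower there and 13 lower in dermal against epidermal T cells. Thinned to 2000 UMIs, shares were 68.6% for *Ramp1* in type 17 T-like, 61.9% for *Ramp2* in blood endothelial-like and 41.7% for *Ramp3* in epidermal γδ-list cells. Of the 18 genes most like a member, 8 were shared with Spearman's rho and 0 with types of at least 50 cells. With a *Trdc* UMI as the gate, chosen after seeing the data, epidermal T cells had 106 CPM of *Ramp1* and 557 of *Ramp3*, and blood endothelial-like cells with at least 5000 UMIs had 638 CPM of *Ramp2*. Without the T cells with no subset, also chosen after seeing the data, 1 list gene was higher and 4 lower in type 17 T-like cells. The order of types was less stable than the levels. With markers from 2 UMIs, epidermal *Ramp3* was higher in T cells with no subset (924 CPM) than in γδ-list cells (445), and dermal *Ramp1* higher in αβ-list (694) than in γδ-list cells (599). In single-list cells dermal *Ramp3* was higher in αβ-list (301) than in *Ccr7* dendritic-like cells (36.9). Over types of at least 50 cells, r of *Ramp1* with *Calcrl* changed sign, from −0.05 to 0.38. The log2 ratios of *Ramp1* and *Ramp3* in both T cell comparisons kept their sign under each setting.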
